A study of Homo sapiens with 9 samples.

Results

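The JmjC histone lysine demethylases described here are 10 genes: KDM2A, KDM3A, KDM3B, KDM4A, KDM4B, KDM4C, KDM5A, KDM5B, KDM6B and KDM7A. They were chosen by gene symbol from the 17492 genes of the deposited table, with earlier results of these data known. All 10 were among the 12832 genes that passed a filter on low counts. RNA was sequenced from HCCLM3, an established human hepatocellular carcinoma line of high metastatic potential, labelled as wild type in every group. There were 3 groups of 3 libraries: cells given the vehicle DMSO (control), cells given quercetin at 50 µM and cells given quercetin at 100 µM. Quercetin is a plant flavonol, and the title of the series speaks of IGFBP3 and of a combination therapy for this cancer. A single cell line was used, and the sources used here do not give the treatment time. The labels do not say whether the 3 libraries of a group are separate cultures, and if they are not, the spread behind the p-values may be technical.

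JmjC demethylases remove methyl groups from lysines of histone tails. They use molecular oxygen, ferrous iron and 2-oxoglutarate, and release formaldehyde, succinate and carbon dioxide, so they belong to the same large family of dioxygenases as the prolyl hydroxylases that mark hypoxia-inducible factor (HIF) for destruction. The members differ in the lysine they act on. KDM3A and KDM3B act on mono- and dimethylated H3K9, a repressive mark, KDM4A, KDM4B and KDM4C on di- and trimethylated H3K9 and H3K36, KDM5A and KDM5B on di- and trimethylated H3K4, a mark of active promoters, KDM6B on the Polycomb mark H3K27, KDM2A on H3K36 and KDM7A on H3K9 and H3K27. KDM3A, KDM4B and KDM6B are known from work in other cells to be induced in low oxygen, the first pair as direct HIF-1 targets. Only mRNA was measured here, and neither enzyme activity nor histone methylation is part of these data.

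The promoters of KDM3A, KDM4B and KDM6B are shown because these 3 mRNAs were the members that passed the test at 100 µM. Each run covers 250 bases before to 50 bases after a RefSeq transcription start, on GRCh38.p14, written 5′ to 3′ along the gene. Capitals mark every match to ACGTG or GCGTG, the core letters of the element that HIF binds, on either strand, and matches that overlap were both counted.
KDM3A, chr2:86441121-86441420, + strand: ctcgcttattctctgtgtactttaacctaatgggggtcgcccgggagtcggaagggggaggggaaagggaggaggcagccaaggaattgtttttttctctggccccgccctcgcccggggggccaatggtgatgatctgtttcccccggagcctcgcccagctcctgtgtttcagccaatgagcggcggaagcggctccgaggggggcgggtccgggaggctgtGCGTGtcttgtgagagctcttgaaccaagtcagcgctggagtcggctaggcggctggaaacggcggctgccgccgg
KDM4B, chr19:4968863-4969162, + strand: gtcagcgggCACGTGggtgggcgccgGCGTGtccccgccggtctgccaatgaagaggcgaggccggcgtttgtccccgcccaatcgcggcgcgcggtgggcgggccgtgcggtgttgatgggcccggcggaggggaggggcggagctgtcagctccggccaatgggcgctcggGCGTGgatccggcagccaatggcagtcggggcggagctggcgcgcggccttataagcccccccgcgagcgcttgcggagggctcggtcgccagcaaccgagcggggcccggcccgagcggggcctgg
KDM6B, chr17:7833967-7834266, + strand: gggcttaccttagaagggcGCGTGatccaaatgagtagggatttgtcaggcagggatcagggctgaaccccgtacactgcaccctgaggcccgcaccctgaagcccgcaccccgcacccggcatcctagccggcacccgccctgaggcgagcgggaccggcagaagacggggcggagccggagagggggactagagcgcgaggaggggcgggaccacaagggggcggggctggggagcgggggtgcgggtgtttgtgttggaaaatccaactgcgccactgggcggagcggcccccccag
The KDM3A promoter held 1 match, 26 bases before the start, and a second RefSeq start nearby shares the same match. The KDM4B promoter held 4 matches, of which a CACGTG counts on both strands. The KDM6B promoter held 1 match, and the promoter of its other RefSeq start held 0. Of all 35116 RefSeq promoters of the same length, 48.4% held at least 1 match and 4.4% held at least 4. The words contain a CG, and the promoters printed hold 23, 43 and 24 CG pairs against a median of 14 over all promoters. Members whose mRNA did not pass the test at 100 µM also held matches: KDM4C had 5, the first KDM2A start 3, KDM7A 2, and KDM4A, KDM5A and KDM5B 1 each, while KDM3B had 0. Match counts are letters in a window and no measure of binding.

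Totals ran from 20061136 to 21599805 estimated counts per library, and the tested genes had a biological coefficient of variation of 14.4%. Among the 12832 tested genes, the shares called higher and lower were 5.28% and 6.31% at 50 µM against control, 10.7% and 10.3% at 100 µM against control, and 2.25% and 1.89% at 100 against 50 µM (edgeR's quasi-likelihood test, Benjamini-Hochberg adjusted p under 0.05 over all genes). On TPM with limma the 100 µM calls divided into 975 higher and 1622 lower genes, against 1370 and 1322 with edgeR on counts. In 2 of the groups 1 library was unlike the rest. The chi-square per gene between control replicate 1 and the other controls was 27.6 and 27.4, beside 3.56 between those. For the 100 µM replicate 3 it was 83.9 and 86.1, beside 5.04 between the other libraries of that dose. Results are therefore also given for the 7 other libraries, in which far more genes pass in either direction: 57.5% at 50 µM, 48.7% at 100 µM and 47.6% between the doses. The liver factor HNF4A (9.58 to 21.2 TPM) and the epithelial keratin KRT8 (2923 to 4497 TPM) were present in every library, whereas ALB reached only 0.76 to 14.0 TPM, and the epithelial markers CDH1 (1.72 to 4.06 TPM) and EPCAM (0.27 to 0.69 TPM) were low or near 0. Markers of other cells were led by CD68 (162 to 376 TPM), LUM (54.7 to 106.0 TPM) and PECAM1 (8.86 to 19.0 TPM), while the defining markers PTPRC (at most 1.34 TPM), CD3E (at most 0.08 TPM) and COL1A1 (at most 0.26 TPM) were at or near 0. The summed 6 leukocyte markers ran from 184 to 257 TPM in control, 163 to 180 TPM at 50 µM and 254 to 377 TPM at 100 µM, the 6 fibroblast markers from 57.7 to 87.2, 66.2 to 73.5 and 63.6 to 109.5 TPM, and the 4 endothelial markers from 19.9 to 22.2, 10.2 to 11.9 and 10.7 to 13.9 TPM; their part in the results below was not tested.

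At 100 µM quercetin 3 of the 10 demethylase mRNAs rose: KDM3A 1.98-fold, KDM4B 1.83-fold and KDM6B 1.43-fold. None fell, and 7 did not pass the test. In bulk RNA a change in the share of cells that hold an mRNA and a change in the amount per cell cannot be told apart. At 50 µM KDM3A rose and KDM5B fell, 8 did not pass, and between the doses KDM3A and KDM4B were higher at 100 µM. The 3 of 10 at 100 µM stand beside 10.7% of all genes, and the 2 of 10 between the doses beside 2.25%. As the members were chosen with earlier results of these data known, these shares are a description. The 1 of 10 in each direction at 50 µM, beside 5.28% and 6.31%, is a share near the background and no result about the members as a list. The count of 0 lower members at 100 µM came from edgeR, stayed 0 at an unadjusted p under 0.05 and was 0 with DESeq2, and the same held between the doses. Of all tested genes 10.3% and 1.89% were called lower in these comparisons, so 0 of 10 is near the background and no result about the members as a list. The median log2 fold change of the members was 0.04 at 50 µM, 0.05 at 100 µM and 0.27 between the doses, beside medians over all tested genes of 0.0033, 0.00087 and 0.012. In the normalised counts the 3 libraries of each group did not overlap for 5 members at 50 µM (2 higher, 3 lower), 4 at 100 µM (all higher) and 5 between the doses (all higher), beside 49.0%, 35.9% and 27.7% of all tested genes in either direction. The counts at 50 and 100 µM are near those shares and no result about the members as a list. On the TPM scale KDM2A and KDM6B overlapped between the doses and KDM7A at 100 µM against control, where KDM4C was apart and lower.

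**Figure D1:**
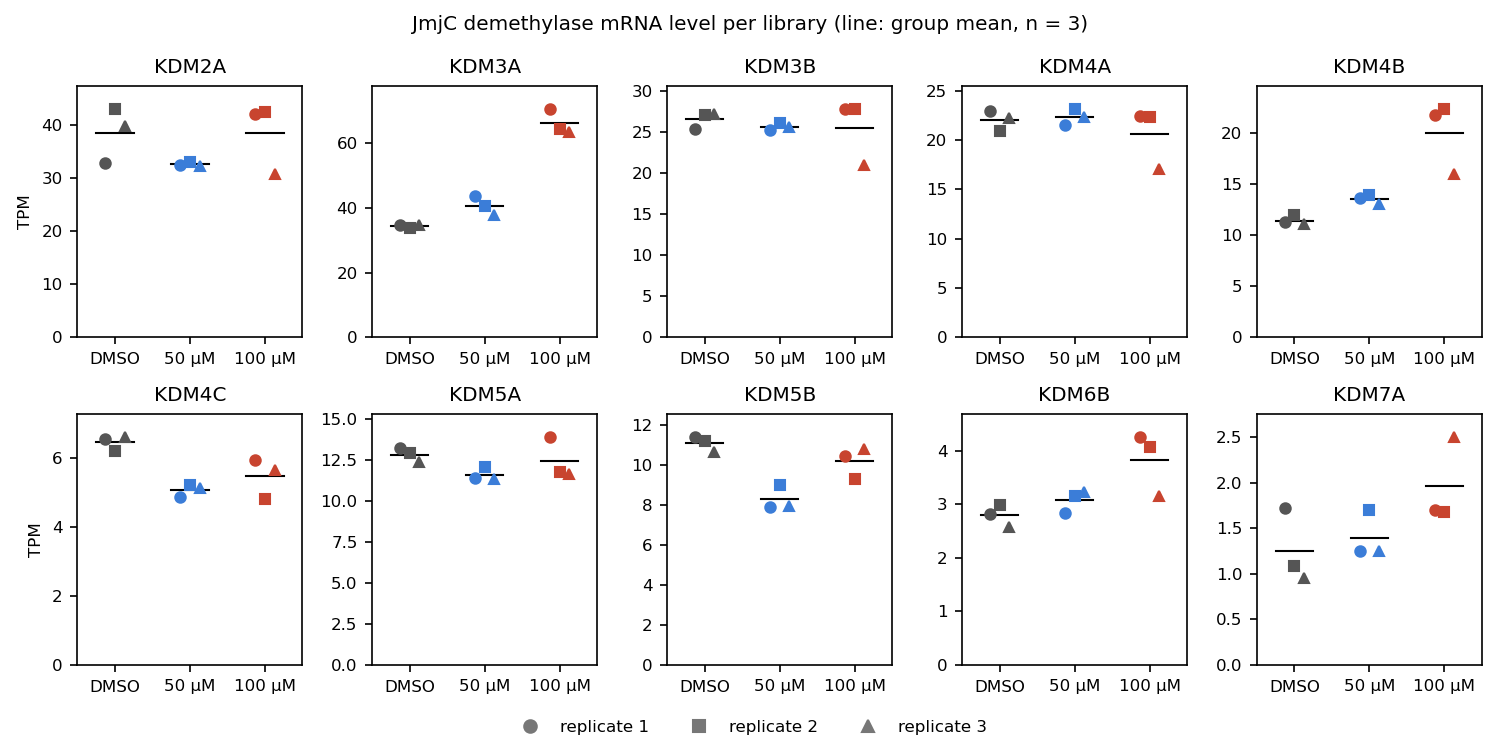
TPM (a transcript level scaled by length and library) of the 10 demethylases in each library, with 1 panel per gene, the 3 groups on the horizontal axis, a symbol per replicate and a line at the group mean (n = 3). KDM3A runs from 33.9 to 34.8 TPM in control and from 63.5 to 70.6 TPM at 100 µM, and KDM5B is lowest at 50 µM.

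Levels can be compared between genes on the TPM scale, which divides by transcript length, but only roughly. The libraries were digested with a nuclease that lowers abundant transcripts and can compress differences between genes. In control cells KDM2A (38.5 ± 5.24 TPM, SD, n = 3) and KDM3A (34.5 ± 0.531) were the most abundant and their ranges overlapped. KDM3B (26.5 ± 1.01), KDM4A (22.1 ± 1.00) and KDM5A (12.8 ± 0.414) followed, each apart from its neighbour. KDM4B (11.4 ± 0.435) and KDM5B (11.1 ± 0.389) did not differ beyond their spread. KDM4C (6.44 ± 0.231), KDM6B (2.80 ± 0.206) and KDM7A (1.25 ± 0.410) were the lowest. At 100 µM KDM3A (66.2 ± 3.89 TPM) stood first with no overlap with KDM2A (38.4 ± 6.58), and KDM4B (20.0 ± 3.51) had moved up beside KDM4A (20.6 ± 3.04), from which it no longer differed beyond the spread. The 10 mRNAs summed to 163 to 171 TPM per library in control, 159.9 to 167.8 TPM at 50 µM and 182 to 221 TPM at 100 µM. KDM3A made up 20.6% ± 0.796 of that sum in control, 24.8% ± 1.51 at 50 µM and 32.5% ± 2.21 at 100 µM (SD, n = 3).

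Among the H3K9 mono- and dimethyl demethylases, KDM3A (gene ID 55818, chr2:86437040-86492716 in the table's GRCh38 coordinates) held 34.79, 33.86 and 34.77 TPM in the control libraries, 43.58, 40.52 and 37.86 TPM at 50 µM and 70.62, 64.36 and 63.48 TPM at 100 µM. Every 50 µM library was above every control, and every 100 µM library was above every 50 µM library. KDM3A encodes JMJD1A, a coactivator known for its part in hypoxic gene expression, fat metabolism and the male germ line. KDM3A rose by a log2 fold change of 0.98 ± 0.077 (SE; edgeR adjusted p 0.000144; 95% interval 1.75- to 2.23-fold) at 100 µM. It rose by 0.32 ± 0.077 on the log2 scale at 50 µM (edgeR adjusted p 0.0309), and between the doses by 0.67 ± 0.077 (edgeR adjusted p 0.00315). The authors' deposited table gives KDM3A log2 fold changes of 0.98, 0.31 and 0.66, with q-values of 1.94e-20, 0.00298 and 4.64e-09. The calls at 100 µM and between the doses were kept in all 18 alternative analyses, whereas the call at 50 µM was lost in 9 of them, among them those without control replicate 2 or 3 (edgeR adjusted p 0.126 and 0.101) or without any 1 of the 50 µM libraries (edgeR adjusted p 0.0866 to 0.122).

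KDM3B (gene ID 51780, chr5:138352685-138437027), the close relative of KDM3A with the same substrate, ran from 25.32 to 27.10 TPM in control, from 25.21 to 26.03 TPM at 50 µM and from 20.89 to 27.78 TPM at 100 µM. The groups overlapped, and the lowest value belonged to the 100 µM replicate 3. The difference from control at 100 µM was 0.017 ± 0.090 in log2 (edgeR adjusted p 0.907), with a 95% interval of 0.881- to 1.16-fold that leaves out the change of KDM3A. The ratio of KDM3A to KDM3B within a library, which no scaling between libraries touches, was 1.30 ± 0.063 in control, 1.59 ± 0.127 at 50 µM and 2.64 ± 0.369 at 100 µM (SD, n = 3), with no overlap between any of the groups.

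The KDM4 members remove di- and trimethyl groups from H3K9 and H3K36. KDM4B (gene ID 23030, chr19:4969087-5153605), which encodes JMJD2B and is known as a coactivator of the oestrogen receptor, held 11.26, 11.92 and 11.10 TPM in control, 13.66, 13.96 and 13.02 TPM at 50 µM and 21.76, 22.37 and 16.00 TPM at 100 µM. All 3 groups were apart, and the 100 µM replicate 3 was the lowest of its group. KDM4B rose by 0.87 ± 0.098 on the log2 scale at 100 µM (edgeR adjusted p 0.000818; 95% interval 1.57- to 2.13-fold) and was 0.56 ± 0.098 higher at 100 than at 50 µM (edgeR adjusted p 0.0174). At 50 µM its difference of 0.31 ± 0.098 did not pass with edgeR (adjusted p 0.0681) and passed with DESeq2 (adjusted p 0.0407). It also passed in edgeR without the 100 µM replicate 3 (adjusted p 0.00487), a library in neither of these groups. The difference was again 0.31 there, and 37.2% of all tested genes passed at 50 µM in that fit, beside 11.6% with all libraries. The call at 100 µM was kept in all 18 alternatives. The call between the doses was lost in 9, among them those without any 1 of the 50 µM libraries (edgeR adjusted p 0.0823 to 0.0981) and those without 100 µM replicate 1 or 2 (edgeR adjusted p 0.0600 and 0.0581).

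KDM4A (gene ID 9682, chr1:43650149-43705518) held 20.97 to 22.94 TPM in control, 21.49 to 23.18 TPM at 50 µM and 17.12 to 22.42 TPM at 100 µM, and its groups overlapped in every comparison. Its difference at 100 µM was -0.034 ± 0.090 in log2 (edgeR adjusted p 0.810; 95% interval 0.850- to 1.12-fold). Exons of KDM4A share 464 of 5172 bases with the antisense gene KDM4A-AS1 and 2077 with a further annotated gene on the same strand. The sources used here do not say whether the counting used strand, so the level of KDM4A is uncertain. Smaller overlaps touch KDM4C (135 of 10323 exon bases) and KDM5A (182 of 12091). KDM4C (gene ID 23081, chr9:6716182-7175648), an enzyme known to be amplified in some carcinomas, held 6.18 to 6.61 TPM in control, 4.86 to 5.21 TPM at 50 µM and 4.81 to 5.94 TPM at 100 µM. Every quercetin library was below every control on the TPM scale, but its differences of -0.31 ± 0.114 at 50 µM and -0.17 ± 0.113 at 100 µM on the log2 scale did not pass (edgeR adjusted p 0.102 and 0.302). Without the 100 µM replicate 3 the difference at 50 µM stayed at -0.31 and passed (edgeR adjusted p 0.0326). In that fit 37.2% of all tested genes passed at 50 µM. Within libraries the ratio of KDM4B to KDM4A was 0.519 ± 0.043 in control, 0.607 ± 0.026 at 50 µM and 0.969 ± 0.033 at 100 µM, and that of KDM4B to KDM4C was 1.78 ± 0.134, 2.68 ± 0.134 and 3.72 ± 0.911 (SD, n = 3). Neither ratio overlapped between any of the groups.

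**Figure D2:**
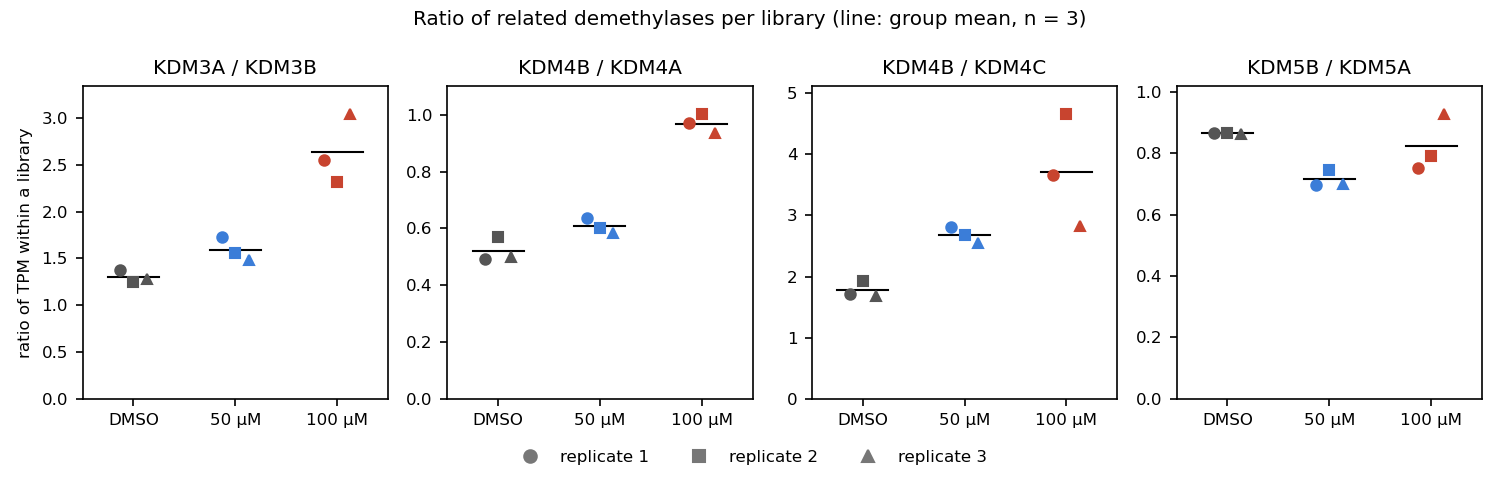
Ratio of TPM between related demethylases within each library for 4 pairs, by group, with a symbol per replicate and a line at the group mean (n = 3). The ratio of KDM3A to KDM3B and both KDM4B ratios are highest at 100 µM with no overlap between groups, and that of KDM5B to KDM5A is lowest at 50 µM.

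Of the H3K4 demethylases, KDM5B (gene ID 10765, chr1:202724495-202809470), known as a luminal factor and a mark of slow-cycling tumour cells in other cancers, held 11.41, 11.17 and 10.65 TPM in control, 7.91, 8.97 and 7.95 TPM at 50 µM and 10.44, 9.31 and 10.78 TPM at 100 µM. The 50 µM libraries lay below all others, and the 100 µM libraries overlapped with control. KDM5B fell by 0.36 ± 0.097 on the log2 scale at 50 µM (edgeR adjusted p 0.0408; 95% interval 0.668- to 0.903-fold), while its difference from control at 100 µM was -0.056 ± 0.097 (edgeR adjusted p 0.704; 95% interval 0.828- to 1.12-fold). Between the doses it was 0.31 ± 0.097 higher at 100 µM, which did not pass (edgeR adjusted p 0.103). The call at 50 µM was lost in 9 of 18 alternatives, among them edgeR without any 1 of the control libraries (adjusted p 0.0502 to 0.156), any 1 of the 50 µM libraries (adjusted p 0.0869 to 0.155) or the 100 µM replicate 1 (adjusted p 0.0550). KDM5A (gene ID 5927, chr12:277050-389320), first known as a partner of the retinoblastoma protein, held 12.37 to 13.19 TPM in control, 11.34 to 12.03 TPM at 50 µM and 11.64 to 13.91 TPM at 100 µM. Its 50 µM libraries were all below control, by a small margin. Its differences were -0.090 ± 0.074 at 50 µM and 0.022 ± 0.074 at 100 µM in log2 (edgeR adjusted p 0.417 and 0.854). The ratio of KDM5B to KDM5A was 0.864 ± 0.0032 in control, 0.714 ± 0.027 at 50 µM and 0.823 ± 0.092 at 100 µM (SD, n = 3), where the 50 µM libraries lay below all others.

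KDM6B (gene ID 23135, chr17:7834210-7854796) encodes JMJD3, which removes the Polycomb mark H3K27 and is known to be induced by inflammatory signals. It held 2.82, 2.99 and 2.58 TPM in control, 2.84, 3.15 and 3.23 TPM at 50 µM and 4.26, 4.06 and 3.16 TPM at 100 µM, from 163 to 286 estimated counts per library. The 100 µM libraries were all above control, and replicate 3 lay within the 50 µM range. KDM6B rose by 0.52 ± 0.124 on the log2 scale at 100 µM (edgeR adjusted p 0.0180; 95% interval 1.18- to 1.74-fold), and its differences of 0.19 ± 0.124 at 50 µM and 0.33 ± 0.123 between the doses did not pass (edgeR adjusted p 0.309 and 0.156). Its call at 100 µM was lost in 7 of 18 alternatives, among them edgeR without control replicate 3 (adjusted p 0.0777) and without 100 µM replicate 1 or 2 (adjusted p 0.0510 and 0.0516). Without the 100 µM replicate 3 the difference between the doses passed (edgeR adjusted p 0.0201). In that fit 27.7% of all tested genes passed between the doses, beside 4.15% with all libraries. In the authors' deposited table KDM6B had a q-value of 0.0338 at 100 µM.

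KDM7A (gene ID 80853, chr7:140084746-140176983), which acts on H3K9 and H3K27, was the lowest member and the most variable. It held 1.72, 1.09 and 0.95 TPM in control, 1.25, 1.70 and 1.25 TPM at 50 µM and 1.70, 1.68 and 2.51 TPM at 100 µM. The highest control and the highest 100 µM value came from control replicate 1 and 100 µM replicate 3, the libraries that were unlike their groups. On the TPM scale these groups overlapped, whereas in normalised counts the 100 µM libraries (6.97 to 11.7 CPM) lay above the controls (4.17 to 6.80 CPM). Its difference at 100 µM was 0.72 ± 0.252 on the log2 scale, 1.64-fold, which did not pass with edgeR (adjusted p 0.0705) and passed with DESeq2 (adjusted p 0.0356). It passed in edgeR without control replicate 1, at 0.97 on the log2 scale (adjusted p 0.0266). KDM2A (gene ID 22992, chr11:67074415-67261545), which acts on H3K36 and is known to bind unmethylated CpG islands, held 32.75, 43.01 and 39.76 TPM in control, 32.38, 33.04 and 32.29 TPM at 50 µM and 42.05, 42.35 and 30.80 TPM at 100 µM. The low values in control and at 100 µM were again those of control replicate 1 and 100 µM replicate 3. Its differences from control were -0.17 ± 0.120 at 50 µM and 0.076 ± 0.120 at 100 µM in log2 (edgeR adjusted p 0.362 and 0.678). Over the 18 alternatives the KDM2A difference at 50 µM ran from -0.28 to -0.068, and in the 7 libraries without control replicate 1 and 100 µM replicate 3 it was -0.27 and passed (edgeR adjusted p 0.000212). In those 7 libraries 57.5% of all tested genes passed at 50 µM. Between the doses KDM2A was 0.24 ± 0.120 higher at 100 µM, which did not pass (edgeR adjusted p 0.278). It passed without the 100 µM replicate 3 (edgeR adjusted p 0.0351), where 27.7% of all tested genes passed between the doses.

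**Figure D3:**
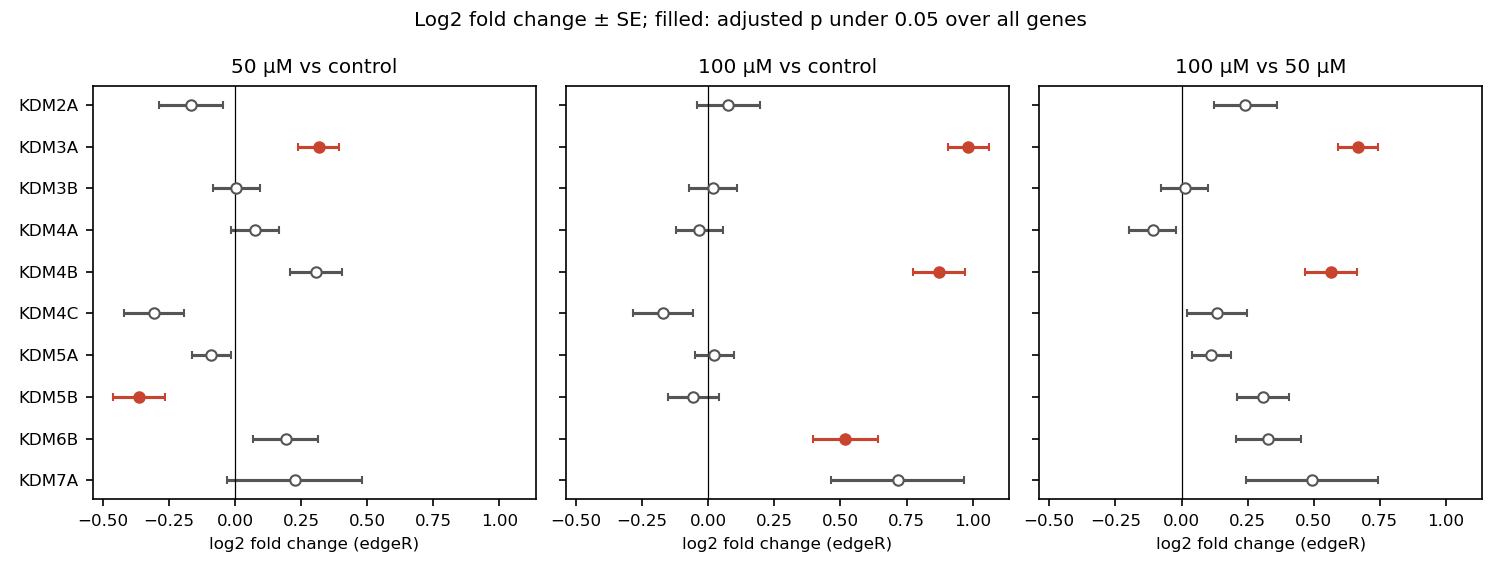
Log2 fold change ± SE of the 10 demethylases in the 3 comparisons, from edgeR, with filled points for an adjusted p under 0.05 over all genes. KDM3A, KDM4B, KDM6B and KDM7A are to the right of 0 in all 3 panels, and so is KDM3B by a small margin. KDM3A is filled in all 3 panels, KDM4B at 100 µM against control and between the doses, and KDM6B at 100 µM against control. KDM5B is filled at 50 µM alone, where it is to the left of 0.

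In the 7 libraries left without control replicate 1 and 100 µM replicate 3, 6 members passed at 50 µM: KDM3A, KDM4B and KDM7A were higher and KDM2A, KDM4C and KDM5B lower. At 100 µM 4 members passed, all higher: KDM3A (0.96 on the log2 scale), KDM4B (0.97), KDM6B (0.60) and KDM7A (0.68). Between the doses 5 passed, all higher at 100 µM: KDM2A, KDM3A, KDM4B, KDM5B and KDM6B. These counts stand beside the 57.5%, 48.7% and 47.6% of all genes that passed in the same 7 libraries, so 4 to 6 of 10 members is a share near the background there, while the fold changes of KDM3A and KDM4B at 100 µM were about as large as in all 9 libraries (0.98 and 0.87).

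The genes whose pattern over the 9 libraries was most like that of KDM3A were MXRA7, LDHA, PTPRH, PKP2 and CALCOCO1. Likeness is the root mean square difference between log2 CPM profiles after each gene's own mean is removed, which was 0.080 for MXRA7, 0.098 for LDHA, 0.0997 for PTPRH, 0.102 for PKP2 and 0.103 for CALCOCO1. LDHA, the lactate dehydrogenase subunit that ends anaerobic glycolysis, held 1075 to 1304.5 CPM in control, 1494 to 1786 CPM at 50 µM and 2202 to 2337 CPM at 100 µM. PKP2, a desmosome protein, held 21.7 to 24.3, 24.7 to 26.7 and 42.3 to 44.0 CPM in the same order. Of the other demethylases KDM4B came closest to KDM3A at 0.135, at rank 18 among the genes that are no members. KDM6B followed at 0.248, far behind at rank 312. These distances share the same 9 libraries and are a description.

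Of 18 further JmjC proteins, all of them tested, 0 were higher and 2 lower at 100 µM, with a median log2 fold change of -0.14, and the 2 amine oxidase demethylases KDM1A and KDM1B, which use FAD in place of iron, gave 0 calls. At an unadjusted p under 0.05 the 20 genes together gave 0 higher and 4 lower, and with DESeq2 0 higher and 2 lower. Beside 10.7% higher and 10.3% lower of all tested genes, 0 and 2 of 20 are no result about these lists. RIOX2, a JmjC hydroxylase of the ribosome, fell from 57.4 ± 1.22 to 40.6 ± 2.58 CPM (SD, n = 3) at 100 µM (log2 fold change -0.50 ± 0.074, edgeR adjusted p 0.00247). KDM6A, the X-linked relative of KDM6B with the same substrate, fell from 47.7 ± 4.65 to 39.3 ± 0.584 CPM (-0.28 ± 0.086, edgeR adjusted p 0.0455), a call that was lost in 11 of 18 alternatives. Those were among others the fits without any 1 library except control replicate 1 and 100 µM replicate 3 (edgeR adjusted p 0.0752 to 0.171). At 50 µM edgeR called 0 of these 20 higher and 4 lower, beside 5.28% and 6.31% of all tested genes. DESeq2 called 0 higher and 5 lower, and at an unadjusted p under 0.05 1 was higher and 6 lower. For the 18 JmjC proteins the number called at 50 µM ran from 0 to 9 over the alternatives. In the 7 libraries 2 were higher and 7 lower, where 57.5% of all tested genes passed.

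Of 27 methyltransferases and core subunits that write the marks on H3K4, H3K9, H3K27 and H3K36, 1 was higher and 4 lower at 100 µM, beside 10.7% higher and 10.3% lower of all tested genes, so the counts are no result about these lists. Their median log2 fold change was -0.11, beside 0.00087 over all genes. The H3K4 methyltransferase KMT2A rose from 25.1 ± 4.86 to 35.4 ± 2.81 CPM (0.50 ± 0.134, edgeR adjusted p 0.0283). The H3K4 core subunits RBBP5 (-0.46 ± 0.106, edgeR adjusted p 0.0159) and WDR5 (-0.43 ± 0.101, edgeR adjusted p 0.0168) fell, as did the H3K36 methyltransferases NSD1 (-0.42 ± 0.116, edgeR adjusted p 0.0309) and SETD2 (-0.40 ± 0.095, edgeR adjusted p 0.0169). Each of these 5 calls was lost in 3 to 11 of 18 alternatives, with adjusted p of up to 0.144, and for each of them this held without control replicate 3. RBBP5, WDR5, SETD2 and NSD1 also lost the call without control replicate 2, KMT2A without 100 µM replicate 1 or 50 µM replicate 3, and NSD1 without 100 µM replicate 2 or any 1 of the 50 µM libraries (edgeR adjusted p 0.0509 to 0.137). None of 7 H3K9 and 4 H3K27 methyltransferase genes passed with edgeR or DESeq2 on all 9 libraries at 100 µM, and at an unadjusted p under 0.05 1 and 2 of them were lower. In the 7 libraries 3 of the H3K9 genes (1 higher, 2 lower) and 1 of the H3K27 genes (lower) passed, beside 48.7% of all tested genes.

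Other enzymes that share the chemistry of the demethylases moved in both directions. Of 7 tested oxygen sensors and collagen hydroxylases 4 were higher and 0 lower at 100 µM, beside 10.7% and 10.3% of all tested genes. The same counts came at an unadjusted p under 0.05 and with DESeq2. The collagen prolyl hydroxylase P4HA1 rose from 84.7 ± 2.16 to 293.9 ± 134 CPM (1.79 ± 0.259, edgeR adjusted p 0.00233), the collagen lysyl hydroxylase PLOD2 from 223 ± 18.3 to 522 ± 34.9 CPM (1.22 ± 0.110, edgeR adjusted p 0.000289), and the HIF prolyl hydroxylase EGLN1 from 146.9 ± 18.9 to 199.9 ± 22.6 CPM (0.44 ± 0.120, edgeR adjusted p 0.0285). P4HA1 in the 100 µM replicate 3 held 449 CPM against 219 and 214 in the others. The EGLN1 call was lost in 9 of 18 alternatives, among them those without control replicate 1 or 3 or 100 µM replicate 1 or 2 (edgeR adjusted p 0.0532 to 0.0767). Of 10 dioxygenases that act on nucleic acids 0 were higher and 3 lower, beside 10.7% and 10.3% of all tested genes. ALKBH8, a tRNA modifier, fell by 0.62 ± 0.10 (log2, edgeR adjusted p 0.00343). ALKBH2 and ALKBH3, which repair alkylated bases, fell by 0.46 ± 0.145 and 0.39 ± 0.122 (edgeR adjusted p 0.0486 and 0.0469). The 0 higher held at an unadjusted p under 0.05 and with DESeq2. The ALKBH2 and ALKBH3 calls were lost in 10 and 11 of 18 alternatives, including 8 of the 9 that leave out 1 library, all but 100 µM replicate 3 (edgeR adjusted p 0.0693 to 0.146).

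Of 15 enzymes that make or consume 2-oxoglutarate, succinate and fumarate, 1 was higher and 2 lower at 100 µM, a share near the 10.7% and 10.3% of all tested genes and no result about the list. IDH2, the mitochondrial NADP-dependent isocitrate dehydrogenase that makes 2-oxoglutarate, rose from 78.1 ± 7.20 to 132.3 ± 3.89 CPM at 50 µM and 145.7 ± 5.14 CPM at 100 µM (0.90 ± 0.082 at 100 µM, edgeR adjusted p 0.000308). FH, fumarate hydratase, fell from 106.0 ± 10.6 to 73.6 ± 2.11 CPM at 100 µM (-0.53 ± 0.084, edgeR adjusted p 0.00329). IDH3A, a subunit of the NAD-dependent enzyme, fell by 0.42 ± 0.133 (log2, edgeR adjusted p 0.0490). That call was lost in 11 of 18 alternatives, among them those without any 1 library except control replicate 1 and 100 µM replicate 2 (edgeR adjusted p 0.0595 to 0.184).

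Genes known as HIF targets in other cells, demethylases left out, moved in 1 direction at 100 µM. Of 12 such genes 9 were higher and 0 lower, beside 10.7% and 10.3% of all tested genes. Their median log2 fold change was 1.23. This list, like the others, was chosen with earlier results of these data known, so its counts are a description. The number called was 9 to 11 in the 18 alternatives, and the 0 lower held at an unadjusted p under 0.05 and with DESeq2. NDRG1 held 248, 240.2 and 236 CPM in control, 519.8, 432 and 430.4 CPM at 50 µM and 1452, 1488 and 1933 CPM at 100 µM. NDRG1, a stress-responsive gene, rose by 2.75 ± 0.131 on the log2 scale at 100 µM (edgeR adjusted p 1.38e-05). CA9, the carbonic anhydrase of hypoxic tumours, held 4.20, 0.754 and 0.864 CPM in control, 24.5, 20.2 and 23.03 CPM at 50 µM and 53.1, 63.9 and 212 CPM at 100 µM. CA9 rose by 5.79 ± 0.723 (log2; edgeR adjusted p 0.00121). Leaving out 100 µM replicate 3 gave 4.88, and leaving out control replicate 1 gave 7.08. ANGPTL4, whose secreted product blocks lipoprotein lipase, rose by 3.14 ± 0.415 (log2; edgeR adjusted p 0.00154), and leaving out 100 µM replicate 3 gave 2.40. At 50 µM 4 of the 12 were higher and 0 lower, beside 5.28% and 6.31% of all tested genes. Between the doses 8 were higher and 0 lower, beside 2.25% and 1.89%. Over the 18 alternatives the number called ran from 1 to 12 at 50 µM and from 2 to 11 between the doses. The 0 lower at 50 µM came with 2 lower at an unadjusted p under 0.05 and 0 with DESeq2.

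Among the HIF subunits the mRNA of HIF1A fell from 648.6 ± 111 CPM in control to 394 ± 92.8 CPM at 100 µM (-0.72 ± 0.176, edgeR adjusted p 0.0201), with 292 CPM in the 100 µM replicate 3. ARNT2, a partner subunit, rose from 15.7 ± 2.60 to 21.9 ± 1.85 CPM (0.48 ± 0.129, edgeR adjusted p 0.0283). The HIF1A call was lost in 3 of 18 alternatives, among them edgeR without control replicate 2 or 3 (adjusted p 0.0832 and 0.0822), and the ARNT2 call in 8, among them edgeR without control replicate 2 or 3 or 100 µM replicate 1 or 2 (adjusted p 0.0632 to 0.0989). HIF proteins are controlled mainly by their breakdown, which mRNA levels do not show. HIF activity was not measured, and its part in the rise of KDM3A and KDM4B was not tested.

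**Figure D4:**
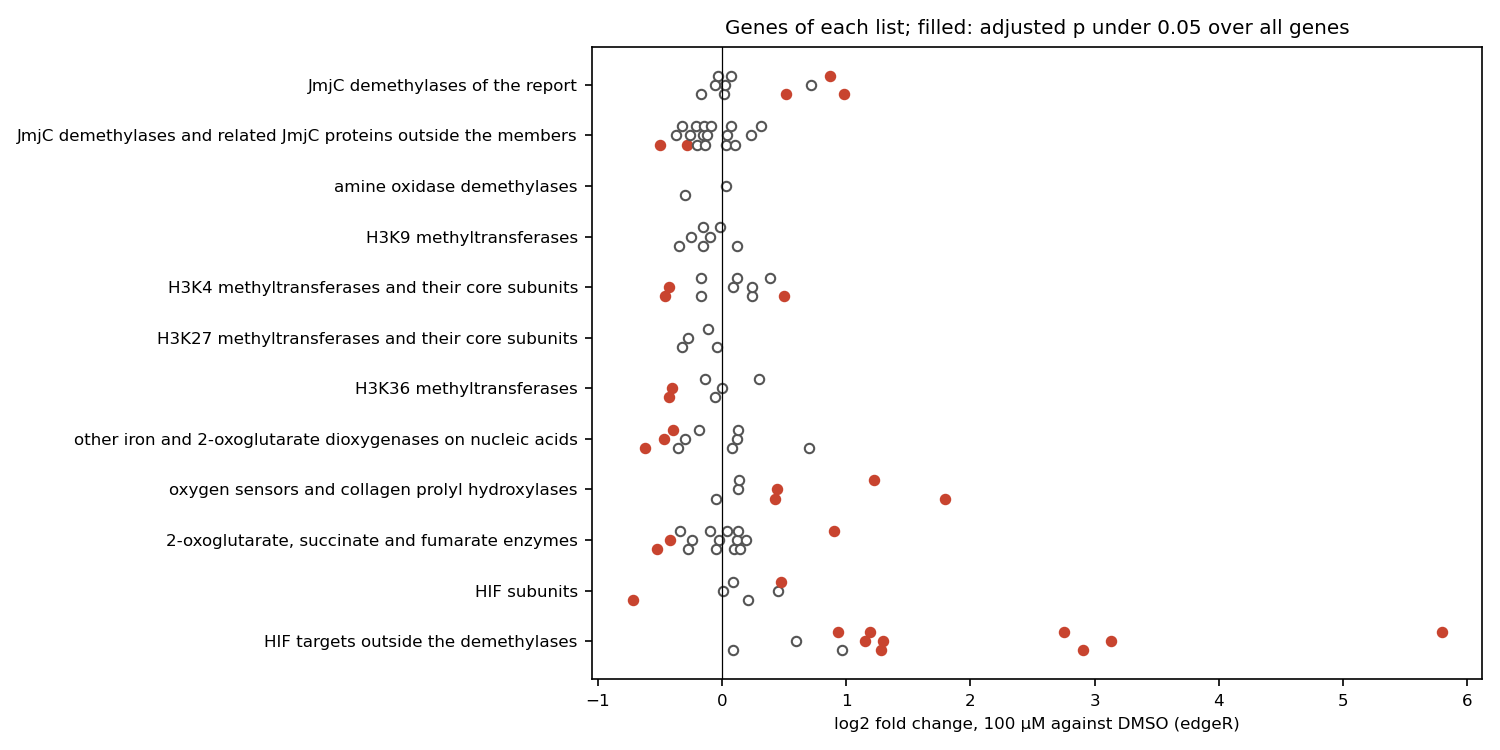
Log2 fold change at 100 µM against control, from edgeR, for each tested gene of the demethylases and of 11 other lists, with filled points for an adjusted p under 0.05 over all genes. Filled points lie only to the right of 0 for the demethylases (3 of 10) and the HIF targets (9 of 12). The same holds for the oxygen sensors and collagen hydroxylases (4 of 7). They lie only to the left for the other JmjC proteins (2 of 18) and the dioxygenases on nucleic acids (3 of 10). So do those of the H3K36 methyltransferases (2 of 6). Of all tested genes 10.7% were called higher and 10.3% lower.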

How the data were processed

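RNA from 9 libraries was taken with Trizol, bound to oligo(dT) beads, fragmented, PCR-amplified and then digested with a duplex-specific nuclease, per the labels' protocols, which mention tissue where the labels give a cell line. The nuclease lowers abundant transcripts and can compress differences between genes. The authors deposited 1 table with expected counts and TPM per library, beside their own comparisons as log2 fold changes, p-values and q-values. The submitters' processing notes name RSEM 1.2.12, Bowtie2 2.2.5, HISAT2 2.0.4 and the build GRCh38.p13, without their roles. Expected counts deposited by the authors are not normalised, and 26.8% of them were whole within 1e-06.

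Here the expected counts were rounded and filtered with edgeR's filterByExpr (minimum count 10, minimum total 15, share 0.7), which removed 4660 genes holding 0.042% of the counts. They were scaled by TMM and tested over all 9 libraries in 1 model with edgeR 4.0.16 (quasi-likelihood F test, robust, two-sided; R 4.3.3, limma 3.58.1), with Benjamini-Hochberg adjustment over 12832 genes and a threshold of 0.05. Standard errors (SE) were derived from F and the log2 fold change, and intervals are 95%. CPM are counts scaled to the TMM library size. The scripts were tested on simulated data. The 18 alternatives were DESeq2 1.42.0, other size factors, no filter, 2 groups alone, a replicate block, limma on log2(TPM + 1) with and without the filter and on log2(TPM + 0.1), each library left out, and 7 libraries. For genes of other lists they were added after seeing the data.

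All members are named. Each list adds up to 3 genes with the largest change past the threshold at 100 µM and at least 5 CPM, then come the 5 genes most like KDM3A and the leading marker of each class. A result that this rule names is not reported here. The members and lists were chosen with earlier results of these data known. Sequences are from RefSeq, and promoters of all 10 members matched. Exon overlaps are from GENCODE on GRCh38.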

Additional observations from a re-analysis of the deposited data

How the results depend on the processing

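Of 540 values of the 10 members under the 18 alternatives, 461 kept their direction and their side of the threshold, 34 lost the call, 17 gained one and 28 changed sign, of which 0 passed the threshold. The number of members called at 100 µM against control stayed between 2 and 4, while the share of all genes called ran from 7.73% (2 groups alone) to 48.7% (7 libraries). At 50 µM against control, where edgeR on all libraries called 2, it was 4 with the 2 groups alone, 1 with limma on log2(TPM + 1) and on log2(TPM + 0.1), 0 without the filter on log2(TPM + 1), 0 to 4 when 1 library was left out and 6 with 7 libraries. Between the doses, where it was also 2, it was 1 in each of the 3 limma fits, 1 to 4 when 1 library was left out and 5 with 7 libraries. The share of all genes called at 50 µM was 33.1% with the 2 groups alone, 37.2% without 100 µM replicate 3 and 57.5% with 7 libraries. With edgeR on all libraries it was 11.6%. Between the doses it was 27.7% without 100 µM replicate 3, 47.6% with 7 libraries and 4.15% with all. In both comparisons the fits with 4 or more members called also called the largest shares of all genes. The labels do not say whether the replicate numbers pair the samples. Correlations of same-numbered libraries ran from -0.464 to 0.276, and 0 of 9 libraries matched best with its own number. With 3 libraries per group, and 1 library unlike the rest in 2 of the groups, this check cannot decide whether they pair. With the replicate number as a block the calls were 0 at 50 µM, 3 at 100 µM and 1 between the doses. Over all genes the block gave 199 higher and 228 lower genes at 50 µM, 893 and 779 at 100 µM, and 81 and 28 between the doses.

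All changes of sign were in values near 0 that no fit called. With limma on log2(TPM + 1), with or without the filter, KDM3B was -0.047 at 50 µM, -0.066 at 100 µM and -0.019 between the doses, KDM2A was -0.0096 and KDM5A -0.043 at 100 µM. On log2(TPM + 0.1) the same values were -0.048, -0.068, -0.020, -0.010 and -0.047. With 7 libraries KDM3B was -0.033 at 50 µM and KDM4A 0.073 at 100 µM. When 1 library was left out KDM3B ran from -0.038 to 0.041 at 50 µM, from -0.027 to 0.10 at 100 µM and from -0.032 to 0.097 between the doses. At 100 µM KDM2A ran from -0.033 to 0.18, KDM4A from -0.087 to 0.048, KDM5A from -0.030 to 0.070 and KDM5B from -0.15 to 0.015. The cause was not tested.

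The number of all genes called moved by over 1.5 times in several alternatives. At 50 µM, against 678 higher and 810 lower, DESeq2 called 1208 and 1359, the 2 groups alone 2012 and 2230, and limma without the filter 285 and 463. At 100 µM, against 1370 and 1322, the 2 groups alone gave 567 and 425. Between the doses, against 289 and 243, DESeq2 gave 704 and 660, the 2 groups alone 180 and 71, and limma without the filter 140 and 93. With 1 library left out the counts ran from 46 higher and 42 lower (without 50 µM replicate 3) to 2281 and 2492 (without 100 µM replicate 3) at 50 µM. At 100 µM they ran from 587 and 503 (without control replicate 3) to 1923 and 1965 (without 100 µM replicate 3), and between the doses from 31 and 12 (without 50 µM replicate 1) to 1847 and 1712 (without 100 µM replicate 3). The lowest member, KDM7A, rested on 82.2 to 236 estimated counts per library, where counting error is widest. At 100 µM the number of genes called over the 18 alternatives ran from 1 to 6 for the other JmjC proteins, from 0 to 1 for the amine oxidase demethylases, from 0 to 7 for the H3K4, 0 to 3 for the H3K9, 0 to 1 for the H3K27 and 0 to 3 for the H3K36 methyltransferases, from 1 to 8 for the dioxygenases on nucleic acids, from 2 to 5 for the oxygen sensors and collagen hydroxylases, from 2 to 6 for the 2-oxoglutarate enzymes and from 0 to 4 for the HIF subunits.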
